A study of Homo sapiens with 6 samples.

Results

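High mobility group (HMG) proteins are among the most abundant non-histone proteins of chromatin, and 9 of their genes are described here across RKO cells with and without added connexin 43. The genes were taken by symbol from a table of 63563 genes: HMGN1, HMGN2, HMGN3 and HMGN4, HMGB1, HMGB2 and HMGB3, and HMGA1 and HMGA2. RKO is an established human colorectal cancer line. The tested cells, OVER43, had been stably transfected with the expression vector pcDNA3.1 carrying the cDNA of connexin 43 (Cx43, encoded by GJA1), and the control cells, EV, with the empty vector; both groups thus carry the vector and its selection, and each has 3 libraries of poly(A) RNA. The labels do not say whether a group is 1 clone or a pool and name no separate cultures for its libraries; the p-values thus speak only of the spread between libraries, which may be technical.

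The 3 families bind chromatin in different ways. HMGN proteins bind nucleosomes themselves, loosen compact chromatin and compete there with linker histone H1. HMGB proteins bend DNA with a pair of HMG boxes, and HMGB1 also acts outside the cell as an alarm signal through receptors such as RAGE and the toll-like receptors. HMGA proteins hold AT-rich DNA in its minor groove with short AT hooks; they are abundant in embryonic cells and in many carcinomas, and HMGA2 is a textbook target of the let-7 microRNAs.

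GJA1 checked the labels, at 23.2, 26.1 and 24.9 FPKM in the OVER43 libraries against 0.2999, 0.351 and 0.394 FPKM in the EV libraries. FPKM counts fragments per kilobase of transcript, scaled to the depth of the library, so levels can be compared between genes. Low values stepped by the worth of 1 fragment. On the FPKM scale this placed the OVER43 libraries at 46.2 to 49.0 M fragments and the EV libraries at 42.4 to 51.9 M, which need not be the sequenced depth. The FPKM of all genes summed to between 554170 and 566675 in OVER43 and between 500290 and 508909 in EV, so a fold change depends on how the libraries are scaled to each other. Among markers of other cell types, fibroblast genes summed to 0.241 to 0.593 FPKM in OVER43 and 0.361 to 1.11 FPKM in EV, and endothelial genes to 0.0124 to 0.0487 FPKM in OVER43 and 0.0459 to 0.0879 FPKM in EV. Among 5 leukocyte genes PTPRC and CD3E were listed at 0, and the sum of 368.3 to 386.6 FPKM in OVER43 and 404.7 to 420.9 FPKM in EV was nearly all CD68. Of 3 colon genes CDX1 and KRT20 were at or near 0 in this line, and CDX2 read 5.54 to 7.06 FPKM in OVER43 and 6.89 to 9.12 FPKM in EV. Of 6 epithelial genes CDH1, VIL1 and KRT19 were below 1 FPKM. KRT18 (148.4 ± 0.989 FPKM in OVER43 against 79.4 ± 3.68 FPKM in EV) and EPCAM (20.5 ± 1.54 FPKM in OVER43 against 12.5 ± 0.293 FPKM in EV) were higher by limma (adjusted p under 0.05) and KRT8 lower (24.6 ± 1.63 FPKM in OVER43 against 58.7 ± 1.92 FPKM in EV), and their part in the results on HMG genes was not tested.

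The HMG genes shifted in opposite directions: the nucleosome-binding and HMG-box genes were mostly higher in OVER43, and HMGA1, the most abundant of them, was lower. Of the 9 genes 8 passed the filter of 1 FPKM in at least 3 of 6 libraries. By limma on log2(FPKM + 1), 6 rose (HMGN1, HMGN2, HMGN3, HMGB1, HMGB2 and HMGA2), 1 fell (HMGA1) and HMGN4 was not called. Changes were common in these cells, with 45.9% of 12205 tested genes called (adjusted p under 0.05 by the method of Benjamini and Hochberg); 28.4% rose and 17.5% fell. The groups did not overlap for 7 of the 8 genes, against 56.3% of all tested genes. The median log2 fold change was 0.21 over the 8 genes and 0.05 over all tested genes. In such bulk RNA, a different number of cells in a state and a different amount of RNA per cell cannot be told apart.

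**Figure D1:**
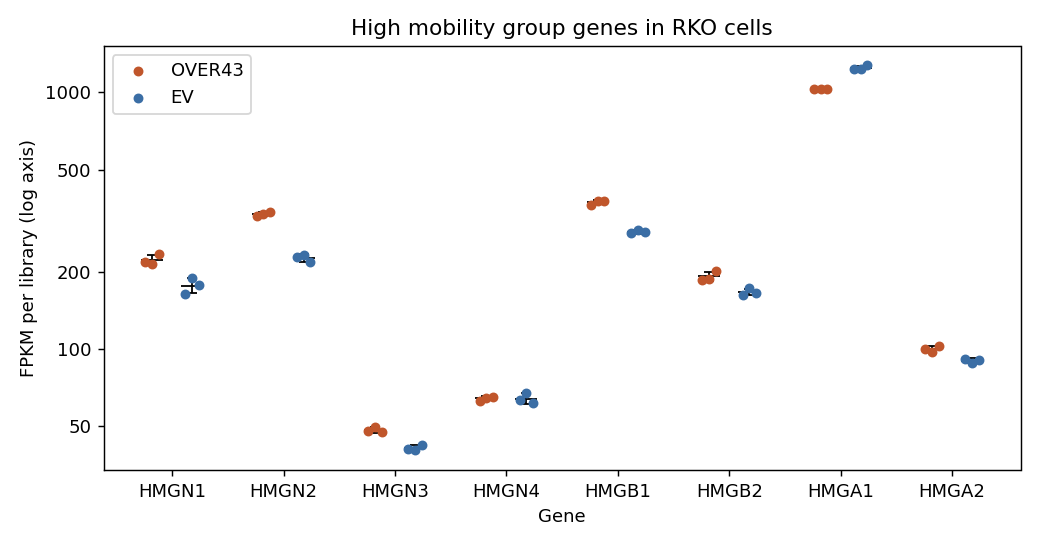
FPKM of the 8 measured genes in each library (log axis), with OVER43 left of EV; points are libraries, black marks the mean and SD of 3. HMGA1 stands highest in both groups and is lower in OVER43, while HMGN2 and HMGB1 show the widest gaps in the other direction.

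The gains were not equally robust to scaling. HMGN2, HMGB1 and HMGA1 kept their call and direction under the deposited scaling, TMM, quantile scaling and equal FPKM sums. After quantile scaling 2 genes were called higher and 2 lower, and with equal sums 3 higher and 2 lower. HMGN4 was the second lower gene in both. Of all 12208 genes tested after quantile scaling 2549 were higher and 2446 lower. With equal sums 1867 of 12222 were higher and 3579 lower. Over all tested genes the median shifted to -0.08 with equal sums, against 0.05 in the deposited scaling. Equal sums divide each library by 1 number, which moves genes and median nearly alike, so distances from the median hardly can change. As deposited and with equal sums, these distances were 0.52 and 0.50 for HMGN2, 0.33 and 0.32 for HMGB1, and -0.33 and -0.34 for HMGA1. Quantile scaling can change them, and there they were 0.37 for HMGN2, 0.20 for HMGB1 and -0.50 for HMGA1.

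**Figure D2:**
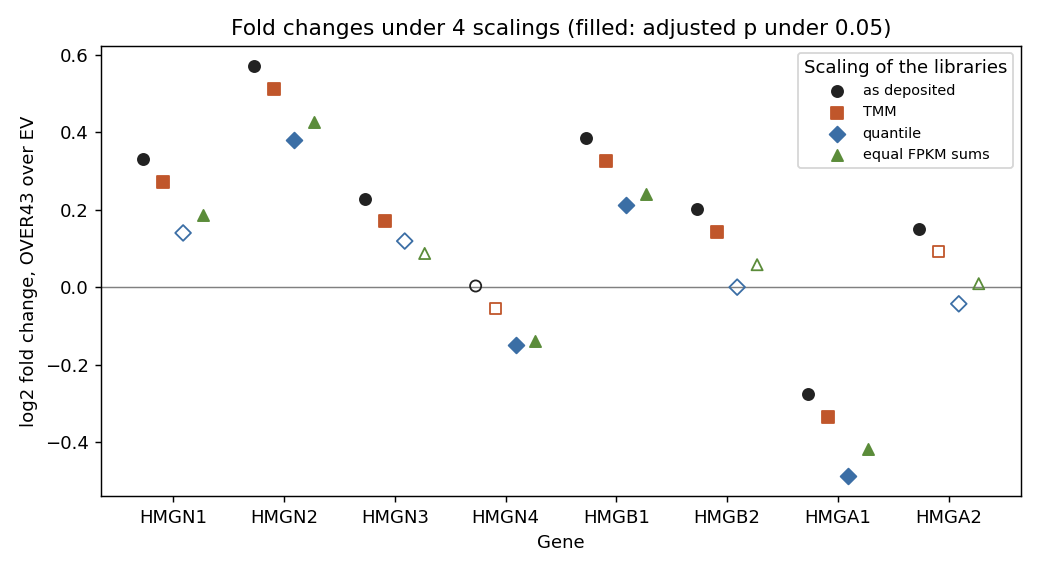
Log2 fold change of OVER43 over EV for each gene under 4 scalings of the libraries; filled markers have a limma adjusted p under 0.05. HMGN2, HMGB1 and HMGA1 stay filled and on their side of 0, HMGN1 loses its call after quantile scaling, and the smaller changes of HMGN3, HMGB2 and HMGA2 lose theirs under 2 or 3 of the other scalings.

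HMGN2, the most abundant HMGN gene, had the largest gain of the 8 tested. It read 329.3, 336.0 and 342.3 FPKM in the OVER43 libraries, against 228.6, 232.1 and 217.2 FPKM in the EV libraries. Every OVER43 library lay above every EV library, and the OVER43 mean was 1.49 times the EV mean (log2 fold change of 0.57, SE 0.033, limma adjusted p = 1.13e-05). Of all tested genes 4.45% rose by more. The gene (ENSG00000198830) lies on chromosome 1 at 26798940 to 26802463 in the deposited hg19 positions. The spliced coding transcript HMGN2-201 (90 amino acids) held 92.9% ± 0.234 of the gene in OVER43 and 90.9% ± 1.52 in EV (SD, n = 3 each). That transcript rose by 0.60 (limma adjusted p = 0.00106 over all isoform entries). The 9 genes have 80 isoform entries, of which 43 were tested, 11 rose and 4 fell, where 9.77% of all 31220 tested entries rose and 4.82% fell and the groups did not overlap in 36.1%. The deposited tables also list an entry spanning the whole gene with its introns; for HMGN2 it stood at 0.949, 1.07 and 0.926 FPKM in OVER43 and 0.470, 0.645 and 0.496 FPKM in EV, below the filter, with no overlap.

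HMGN1, the other ubiquitous HMGN protein, rose too. It read 218.7, 213.3 and 233.2 FPKM in OVER43, against 164.2, 188.0 and 176.9 FPKM in EV (log2 fold change of 0.33, SE 0.054, limma adjusted p = 0.00159). The groups did not overlap, and the change was 0.14 after quantile scaling (limma adjusted p = 0.0578). Its gene (ENSG00000205581) lies on chromosome 21 at 40714240 to 40721573 (hg19). The full-length coding transcript HMGN1-204, of 100 amino acids, made up 85.6%, 83.2% and 80.2% of the gene in OVER43 and 70.1%, 69.8% and 78.5% in EV. These shares depend on HMGN1-218, a non-coding entry of 405 bases with uneven estimates. It held 1.14%, 2.79% and 6.73% in OVER43 and 10.2%, 15.1% and 4.58% in EV, and was not called (limma adjusted p = 0.314). HMGN1-204 rose by 0.52 (limma adjusted p = 0.00833). That call was lost after quantile scaling (0.32, limma adjusted p = 0.0515) and without the filter on low values (limma adjusted p = 0.0660).

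HMGN3, which is enriched in eye, brain and endocrine tissue, was the lowest of the measured members. It read 47.7, 49.6 and 47.4 FPKM in OVER43, against 40.6, 40.3 and 42.3 FPKM in EV (log2 fold change of 0.23, SE 0.041, limma adjusted p = 0.00268). Its 2 splice forms did not move equally. The long form HMGN3-202, of 99 amino acids, read 23.6, 22.9 and 22.8 FPKM in OVER43 and 17.6, 17.4 and 18.4 FPKM in EV, a rise of 0.36 (limma adjusted p = 0.00524). The short form HMGN3-201, of 77 amino acids, lacks the C-terminal part and read 23.8, 26.5 and 24.4 FPKM in OVER43 and 22.8, 22.6 and 23.6 FPKM in EV (0.11, limma adjusted p = 0.228). The ratio of long to short form was 0.991, 0.865 and 0.934 in OVER43 and 0.772, 0.774 and 0.781 in EV, with no overlap; an exact two-sided permutation test gave p = 0.1, the smallest that 3 against 3 allows. The gene (ENSG00000118418) lies on chromosome 6, with a deposited range of 79910961 to 79946514 (hg19) that reaches upstream past both forms. An antisense gene, HMGN3-AS1, overlaps 144 bases of both forms and stood at 0.334 to 0.589 FPKM in OVER43 and 0.382 to 0.572 FPKM in EV.

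HMGN4, a gene close to HMGN2 in sequence, did not pass the test, at 62.8, 64.4 and 65.1 FPKM in OVER43 and 63.2, 67.3 and 61.5 FPKM in EV (log2 fold change of 0.00, SE 0.043, limma adjusted p = 0.959). The groups overlapped. It was lower after quantile scaling (-0.15, limma adjusted p = 0.0169) and with equal sums (-0.14, limma adjusted p = 0.0234). Its gene (ENSG00000182952) lies on chromosome 6 at 26538632 to 26546482 (hg19), and 1 coding transcript held 98.5% ± 0.123 of it in OVER43 and 98.2% ± 0.0996 in EV. Within the HMGN family, a measure that needs no scaling between libraries, HMGN4 took 9.57% ± 0.129 of the FPKM in OVER43 and 12.6% ± 0.224 in EV, and HMGN2 50.1% ± 0.461 in OVER43 and 44.5% ± 1.30 in EV. HMGN1 took 33.1% ± 0.875 in OVER43 and 34.8% ± 1.46 in EV, and these ranges overlapped.

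HMGB1, the most abundant HMG-box protein, read 364.7, 376.8 and 378.4 FPKM in OVER43, against 282.1, 291.0 and 284.5 FPKM in EV. The lowest OVER43 library stood well above the highest EV library, and the ratio of means was 1.31 (log2 fold change of 0.38, SE 0.028, limma adjusted p = 3.00e-05). The gene (ENSG00000189403) lies on chromosome 13 at 31032883 to 31191734 (hg19). Its transcripts HMGB1-205, HMGB1-201 and HMGB1-203, all coding, held over 10% of its FPKM each, and all rose. They begin at different starts: HMGB1-205 at 30465242 on chromosome 13 of GRCh38, and HMGB1-201 and HMGB1-203 further upstream at 30465938 and 30465965.

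HMGB1-205 read 141.4, 148.9 and 146.4 FPKM in OVER43 and 98.4, 108.7 and 91.6 FPKM in EV (log2 fold change of 0.55, limma adjusted p = 0.00511). HMGB1-201, a form of 158 amino acids, rose by 0.36 (limma adjusted p = 0.00473). HMGB1-203 encodes all 215 amino acids and carries a 3′ UTR of 4653 bases; it read 98.1, 100.1 and 98.1 FPKM in OVER43 and 82.9, 81.4 and 82.6 FPKM in EV (0.26, limma adjusted p = 0.00254), a call lost after quantile scaling (0.05, limma adjusted p = 0.395). The FPKM of HMGB1-205 over the summed FPKM of HMGB1-201 and HMGB1-203 was 0.678, 0.702 and 0.679 in OVER43 and 0.580, 0.652 and 0.524 in EV. HMGB1-205 also encodes 215 amino acids and has a 3′ UTR of 450 bases, and HMGB1-201 has one of 187. The transcripts thus differ in both start and 3′ end, which this ratio cannot tell apart. The share of HMGB1-205 in the gene was 39.0% ± 0.459 in OVER43 and 34.8% ± 2.58 in EV, again without overlap (exact two-sided permutation p = 0.1, the smallest possible).

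The promoters at these starts, and those of HMGN2 and HMGA1, are shown because these 3 genes carry the changes that held under every scaling. Each line gives the 250 bases before a RefSeq start site (GRCh38.p14), 5′ to 3′ on the gene's strand, with CCAAT boxes (CCAAT, or ATTGG on the other strand) in capitals. The lines are HMGB1 at chr13:30465937-30466186 (minus strand, upstream start), HMGB1 at chr13:30465241-30465490 (minus strand, downstream start), HMGN2 at chr1:26472190-26472439 (plus strand) and HMGA1 at chr6:34236623-34236872 (plus strand).
HMGB1 upstream start: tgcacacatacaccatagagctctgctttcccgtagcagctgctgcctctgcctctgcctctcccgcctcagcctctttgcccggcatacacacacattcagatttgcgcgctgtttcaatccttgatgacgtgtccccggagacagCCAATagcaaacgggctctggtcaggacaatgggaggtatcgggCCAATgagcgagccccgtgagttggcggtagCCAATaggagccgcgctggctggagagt
HMGB1 downstream start: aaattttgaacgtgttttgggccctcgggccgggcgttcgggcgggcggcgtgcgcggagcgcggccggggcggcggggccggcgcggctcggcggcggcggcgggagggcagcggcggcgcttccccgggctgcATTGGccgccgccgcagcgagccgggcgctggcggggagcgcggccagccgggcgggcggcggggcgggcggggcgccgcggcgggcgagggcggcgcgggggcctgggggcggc
HMGN2: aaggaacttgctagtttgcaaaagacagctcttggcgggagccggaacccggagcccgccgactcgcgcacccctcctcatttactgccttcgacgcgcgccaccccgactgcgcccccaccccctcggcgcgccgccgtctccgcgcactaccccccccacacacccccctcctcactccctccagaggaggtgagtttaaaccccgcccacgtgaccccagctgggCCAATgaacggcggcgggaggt
HMGA1: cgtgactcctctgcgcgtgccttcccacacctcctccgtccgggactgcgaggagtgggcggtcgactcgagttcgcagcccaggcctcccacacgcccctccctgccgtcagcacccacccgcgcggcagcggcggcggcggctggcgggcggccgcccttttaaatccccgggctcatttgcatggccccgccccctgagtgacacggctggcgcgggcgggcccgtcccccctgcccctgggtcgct

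The upstream HMGB1 start has 3 CCAAT boxes, beginning 103, 59 and 28 bases before it, and the downstream start has 1, at 115 bases. HMGN2 has 1, at 22 bases. The HMGA1 window shown has 0, while that of another HMGA1 start, at chr6:34238541-34238790, has 1, at 146 bases. Among 35116 RefSeq promoter windows of this length, 32.0% hold at least 1 such match and 2.93% hold at least 3. The table matched 7 of the 9 genes; HMGN1 and HMGN3 have 2 matches each, HMGN4 and another HMGB1 start have 0, and the 2 HMGB3 starts have 3 and 0. These are letters in a window, not binding sites.

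HMGB2, the HMG-box protein of proliferating cells, read 185.6, 187.8 and 201.2 FPKM in OVER43, against 162.3, 172.0 and 165.2 FPKM in EV. The groups did not overlap (log2 fold change of 0.20, SE 0.040, limma adjusted p = 0.00411), but the change was 0.00 after quantile scaling (limma adjusted p = 0.993) and 0.06 with equal sums (limma adjusted p = 0.200). The ratio of HMGB1 to HMGB2 was 1.96, 2.01 and 1.88 in OVER43 and 1.74, 1.69 and 1.72 in EV. The gene (ENSG00000164104) lies on chromosome 4 at 174252845 to 174256276 (hg19). Its 3 main transcripts share 1 product of 209 amino acids, and their shares overlapped between the groups; the major one, HMGB2-202, held 62.6% ± 1.22 in OVER43 and 62.3% ± 1.59 in EV.

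HMGB3, an HMG-box protein of embryonic and blood-forming cells on chromosome X (150148981 to 150159248, hg19), was listed at 0 in all 6 libraries, as were its 6 isoform entries, and carries the deposited status of not tested. A listed 0 can be a missing estimate in these tables, so no level is given for it.

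HMGA1 was the highest of the 9 genes, ranked 74 among all tested genes by mean FPKM, and the only one that fell. It read 1026, 1034 and 1030.0 FPKM in OVER43, against 1232, 1235 and 1275 FPKM in EV. The OVER43 libraries lay close to each other and well below the lowest EV library (ratio 0.826, log2 fold change of -0.28, SE 0.022, limma adjusted p = 5.39e-05). The decrease was -0.49 after quantile scaling and -0.42 with equal sums. Its gene (ENSG00000137309) lies on chromosome 6 at 34204649 to 34214008 (hg19). The whole-gene entry with introns read 2.19, 2.26 and 2.69 FPKM in OVER43 and 3.51, 3.16 and 3.43 FPKM in EV, without overlap (log2 fold change of -0.37, limma adjusted p = 0.0917).

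HMGA1 makes a long form (HMGA1a, 107 amino acids) and a form shortened by alternative splicing ahead of the second AT hook (HMGA1b, 96 amino acids). The main long transcript, HMGA1-201, read 585.6, 587.2 and 594.6 FPKM in OVER43 and 760.2, 764.1 and 715.6 FPKM in EV (log2 fold change of -0.34, limma adjusted p = 0.00200). The transcripts of the short form were not estimated evenly in EV: HMGA1-204 read 123.8, 234.6 and 354.0 FPKM there and HMGA1-202 253.8, 98.5 and 27.6 FPKM. In OVER43 they stood at 330.7, 333.3 and 321.2 FPKM and at 24.7, 23.9 and 25.8 FPKM. HMGA1-205, another transcript of the long form, was uneven in EV too, at 19.3, 73.3 and 155.4 FPKM. In OVER43 HMGA1-205 read 82.5, 86.9 and 85.2 FPKM. HMGA1-202 was not called (limma adjusted p = 0.182) but was without EV library 2 (limma adjusted p = 0.0202). Transcripts were therefore also summed by the length of their product, a step chosen after these values were seen. The long form then read 668.0, 674.1 and 679.9 FPKM in OVER43 and 779.5, 837.3 and 871.0 FPKM in EV (-0.30, limma adjusted p = 5.46e-04). The short form read 355.6, 357.5 and 347.1 FPKM in OVER43 and 379.5, 333.3 and 382.4 FPKM in EV, and the groups overlapped (-0.04, limma adjusted p = 0.514). It was called lower after quantile scaling (-0.17, limma adjusted p = 0.0158), with equal sums (-0.19, limma adjusted p = 0.0231) and without EV library 1 (-0.11, limma adjusted p = 0.0308).

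The long form took 65.6% ± 0.521 of the coding FPKM of HMGA1 in OVER43 and 69.4% ± 2.14 in EV. The non-coding transcript HMGA1-206 was listed at 0 in every OVER43 library, against 69.8, 61.2 and 17.5 FPKM in the EV libraries. Without it and other non-coding entries the coding sum of HMGA1 still fell, at 1024, 1032 and 1027 FPKM in OVER43 and 1159, 1171 and 1253 FPKM in EV (log2 fold change of -0.22, limma adjusted p = 9.41e-04).

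HMGA2, the second AT-hook protein, changed less as a gene than in its transcripts. It read 99.8, 97.4 and 102.9 FPKM in OVER43, against 91.6, 88.1 and 90.1 FPKM in EV (log2 fold change of 0.15, SE 0.035, limma adjusted p = 0.00867). That call was lost with TMM (0.09, limma adjusted p = 0.0596) and with equal sums (0.01, limma adjusted p = 0.838), and the sign turned after quantile scaling (-0.04, limma adjusted p = 0.305). The gene (ENSG00000149948) lies on chromosome 12. Its deposited range, 66151799 to 66360075 (hg19), is that of a bundle shared with the antisense gene RPSAP52 and begins upstream of the HMGA2 transcripts.

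The full-length transcript HMGA2-204 encodes the common protein of 109 amino acids and has a 3′ UTR of 3003 bases. It read 30.4, 30.7 and 28.9 FPKM in OVER43, against 20.4, 19.1 and 18.8 FPKM in EV (log2 fold change of 0.60, SE 0.049, limma adjusted p = 0.00161). HMGA2-202, with another last exon, 118 amino acids and a 3′ UTR of 106 bases, read 19.8, 18.5 and 19.7 FPKM in OVER43 and 14.2, 11.2 and 15.03 FPKM in EV (0.50, limma adjusted p = 0.0352). The call on HMGA2-202 was lost under TMM, quantile scaling, equal sums, no filter and without any 1 OVER43 library or EV library 0, with limma adjusted p of 0.0607 to 0.177. HMGA2-211, a transcript that ends in an intron and is annotated as retained intron, went the other way, at 35.8, 34.0 and 37.5 FPKM in OVER43 and 44.5, 45.1 and 44.2 FPKM in EV (-0.31, limma adjusted p = 0.00860; 0.0512 without the filter on low values).

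The HMGA2 transcript balance needs no scaling between libraries. HMGA2-211 held 35.9%, 34.9% and 36.5% of the gene in OVER43 and 48.5%, 51.1% and 49.0% in EV, and HMGA2-204 held 30.5%, 31.5% and 28.1% in OVER43 and 22.3%, 21.6% and 20.9% in EV. The ratio of HMGA2-204 to HMGA2-211 was 0.850, 0.902 and 0.772 in OVER43 and 0.459, 0.423 and 0.425 in EV, a 1.93-fold gap without overlap (exact two-sided permutation p = 0.1, the smallest possible). Summed over all 7 coding transcripts, HMGA2 read 60.9, 59.2 and 60.5 FPKM in OVER43 and 44.9, 40.7 and 43.5 FPKM in EV (log2 fold change of 0.48, limma adjusted p = 1.19e-04), a sum chosen after the values were seen. The whole-gene entry averaged 2.18 ± 0.0757 FPKM in OVER43 and 2.002 ± 0.0132 FPKM in EV (limma adjusted p = 0.675).

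**Figure D3:**
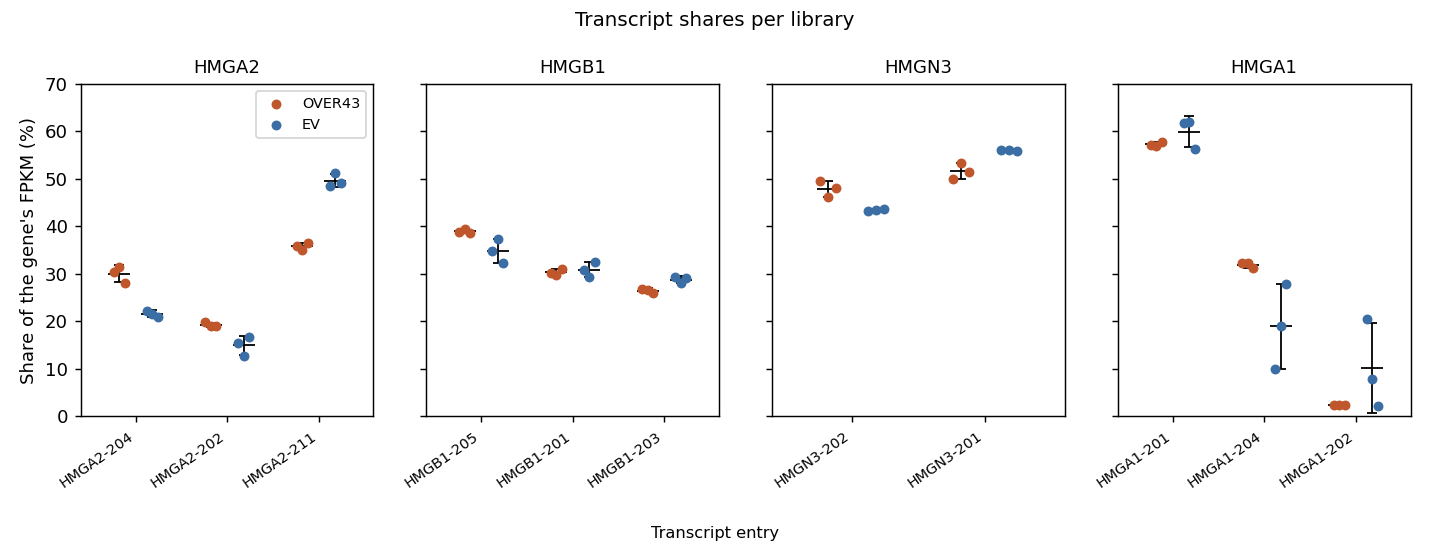
Share of each gene's FPKM held by its main transcripts in every library, OVER43 left of EV; points are libraries, black marks the mean and SD of 3. HMGA2-204 and HMGA2-211 move in opposite directions without overlap, while the EV libraries spread widely for HMGA1-204 and HMGA1-202.

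HMGA2 is known as a let-7 target through sites in its long 3′ UTR, and the sequences are shown because HMGA2-204 and HMGA2-202, both of which gained share in OVER43, differ in carrying them. The mature let-7a-5p (RefSeq, GRCh38.p14) has its seed, bases 2 to 8, in capitals, and all 9 let-7 family arms looked up share it.
let-7a-5p: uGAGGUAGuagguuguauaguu
The 3′ UTR of HMGA2-204 (GENCODE 29, GRCh38, plus strand) holds 4 matches to this seed, CTACCTC in capitals, beginning at bases 21, 1256, 1668 and 2521 of the UTR. The windows lie at chr12:65963298-65963320, chr12:65964533-65964555, chr12:65964945-65964967 and chr12:65965798-65965820.
HMGA2 site 1: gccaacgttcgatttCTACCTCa
HMGA2 site 2: ccccactactcaataCTACCTCt
HMGA2 site 3: ttgacttgcaaagacCTACCTCc
HMGA2 site 4: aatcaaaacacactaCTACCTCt

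The 3′ UTR of HMGA2-202 has 0 matches, and that of the main HMGA1 transcripts, of 1347 bases, has 1. The main transcripts of the other members have 0, the 4653 bases of HMGB1-203 among them. Of 3167 coding transcripts with a 3′ UTR of 2500 to 3500 bases 13.7% hold at least 1 match, and 0.0632% hold at least 4. The latter are 2 transcripts, with HMGA2-204 itself counted among them. HMGA2-204 and HMGA2-202 both stood higher in OVER43, with and without matches, and the difference between their fold changes was not tested. The let-7 microRNAs themselves were not analysed here.

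The make-up of the HMG genes changed more than their sum. HMGB3 entered the sums and shares below at its listed 0, which can be a missing estimate. The summed FPKM of the 9 genes was 2334, 2359 and 2400.0 in OVER43 and 2265, 2314 and 2312 in EV, a ratio of 1.03, and 0.932 once each library was divided by its FPKM sum. HMGA1 held 43.6% ± 0.565 of it in OVER43 and 54.3% ± 0.874 in EV, HMGN2 14.2% ± 0.0837 in OVER43 and 9.84% ± 0.387 in EV, and HMGB1 15.8% ± 0.175 in OVER43 and 12.4% ± 0.135 in EV. The HMGN genes summed to 670.0 ± 15.8 FPKM in OVER43 and 507.4 ± 17.6 FPKM in EV (1.32-fold, and 1.20-fold after that division). The HMGB genes summed to 564.8 ± 14.6 FPKM in OVER43 and 452.4 ± 9.54 FPKM in EV (1.25-fold, and 1.13-fold), and the HMGA genes to 1130.0 ± 3.84 FPKM in OVER43 and 1337 ± 23.7 FPKM in EV (0.845-fold, and 0.765-fold). The ratio of HMGN2 to HMGA1 was 0.321, 0.325 and 0.332 in OVER43 and 0.186, 0.188 and 0.170 in EV, and each of these measures separated the groups without overlap.

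**Figure D4:**
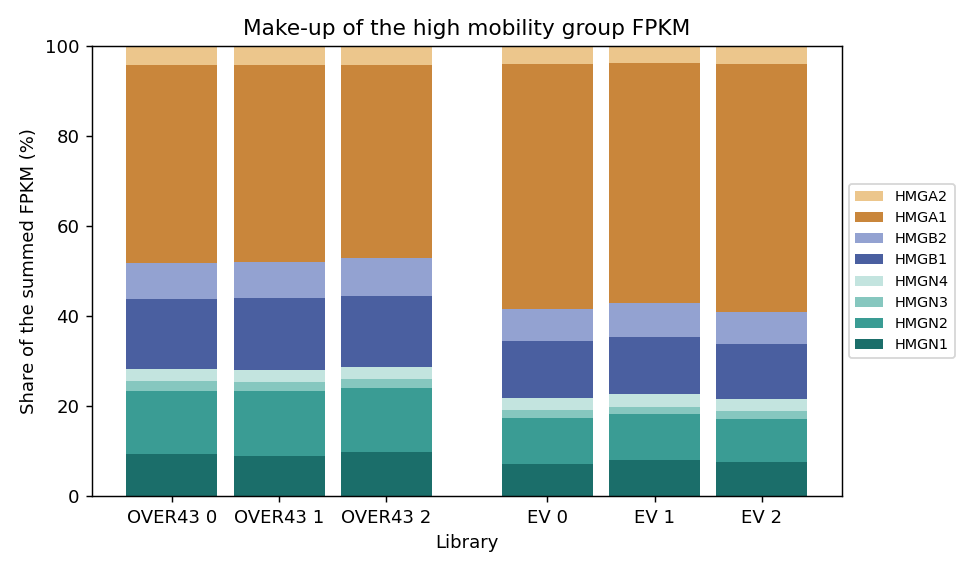
Share of each gene in the summed FPKM of the HMG genes, 1 bar per library with the 3 OVER43 libraries on the left (HMGB3 is listed at 0). HMGA1 fills 42.9% to 43.9% of the OVER43 bars and 53.4% to 55.1% of the EV bars.

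The order of the levels was the same in both groups. It ran HMGA1, HMGB1, HMGN2, HMGN1, HMGB2, HMGA2, HMGN4 and HMGN3 from high to low. Neighbours in this order did not overlap within a group, except HMGN1 and HMGB2 in EV, at 164.2 to 188.0 and 162.3 to 172.0 FPKM. On the FPKM scale some 1043 fragments lay behind the lowest library value of HMGN3 and 80897 behind that of HMGA1, so counting error weighs most on HMGN3.

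The authors' deposited table, tested with Cuffdiff, called 4 of the 9 genes, and HMGB3 was not tested there. The share of all genes that Cuffdiff called was not counted, so these calls have no background beside them. Its q-values were 5.47e-04 for HMGN2 and HMGB1, 0.0154 for HMGN1 and 0.0116 for HMGA1, all with the direction given above. It did not call HMGN3 (q = 0.0966), HMGB2 (q = 0.0783), HMGA2 (q = 0.663) or HMGN4 (q = 0.99).

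HMG genes have many processed pseudogenes, copies of the mRNA in the genome that can share its reads. The table lists 156 of them, of which 90 stood at 0 in every library and 11 averaged 1 FPKM or more in a group. HMGN2 has the most pseudogene signal, which equalled 31.3% of its own FPKM in OVER43 and 31.0% in EV. Most of it was HMGN2P5 on chromosome 15, at 95.7, 99.9 and 110.6 FPKM in OVER43 and 75.5, 60.8 and 63.9 FPKM in EV (log2 fold change of 0.61, limma adjusted p = 6.96e-04). HMGN2P28 was listed at 0 in OVER43 and at 3.63, 0.646 and 0.602 FPKM in EV.

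For HMGB1 the pseudogenes equalled 12.7% of its FPKM in OVER43 and 12.3% in EV. HMGB1P5 stood at 21.5 ± 0.288 FPKM in OVER43 against 12.9 ± 0.557 FPKM in EV (limma adjusted p = 4.29e-05), HMGB1P6 at 22.9 ± 1.43 FPKM in OVER43 against 18.6 ± 2.93 FPKM in EV (limma adjusted p = 0.0464), and HMGB1P3 was not called (limma adjusted p = 0.313). HMGN1P38 and HMGN1P3 averaged under 6 FPKM and were not called (limma adjusted p = 0.0633 and 0.835). Of the HMGA1 copies, which equalled 0.812% of its FPKM in OVER43 and 0.928% in EV, HMGA1P2 fell (1.76 ± 0.485 FPKM in OVER43 against 3.47 ± 1.28 FPKM in EV, limma adjusted p = 0.0316), and HMGA1P8, HMGA1P4 and HMGA1P3 were not called. Adding each gene's pseudogenes to it changed no call among the 8 genes.

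The genes around each member on its chromosome were set beside it. The median log2 fold change of the 30 nearest tested genes was 0.04 around HMGN2, 0.08 around HMGB1, 0.09 around HMGA1 and 0.02 around HMGN1. Around the other 4 genes it lay between -0.07 (HMGN3) and 0.12 (HMGN4).

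The tested genes whose profile over the 6 libraries was closest to each member were found by the root mean square difference of mean-centred log2(FPKM + 1). They were HNRNPA3 and PAPOLA-DT for HMGN2 (0.0171 and 0.0197), PMF1 and RRP1B for HMGB1 (0.0134 and 0.0151), and NCBP1 and DYNLT1 for HMGA1 (0.0138 and 0.0178). HNRNPA3, an RNA-binding protein of splicing, averaged 209.4 ± 2.92 FPKM in OVER43 and 140.4 ± 4.25 FPKM in EV, and NCBP1, the large subunit of the nuclear cap-binding complex, 23.5 ± 0.232 FPKM in OVER43 and 28.4 ± 0.475 FPKM in EV. The closest for the others were BRAT1 and ESF1 (HMGN1), CASD1 and E2F6 (HMGN3), FAF2 and AP1B1 (HMGN4), IMPDH1 and IFI30 (HMGB2), and PTTG1IP and ENSG00000267705 (HMGA2). PAPOLA-DT averaged only 2.02 FPKM in OVER43 and 1.03 FPKM in EV. ENSG00000267705 averaged 1.70 FPKM in OVER43 and 1.45 FPKM in EV and was not called (limma adjusted p = 0.2885). At such low levels log2(FPKM + 1) shrinks changes, so a close profile need not be an equal fold change in FPKM.

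Among genes that act with the HMG proteins on chromatin, the histone chaperones and linker histones that changed were mostly higher in OVER43 in the deposited scaling. Of 19 tested histone chaperones 12 rose and 1 fell there, with a median of 0.22, and 8 rose after quantile scaling or with equal sums. How many fell under those scalings is not reported here. NCL (nucleolin) averaged 774.9 ± 8.47 FPKM in OVER43 and 579.3 ± 21.7 FPKM in EV, ASF1B (an H3-H4 chaperone of S phase) 44.8 ± 0.629 FPKM in OVER43 and 34.2 ± 0.529 FPKM in EV, and NAP1L1 (an H2A-H2B chaperone) 488.4 ± 3.43 FPKM in OVER43 and 432.8 ± 5.07 FPKM in EV. ANP32B fell, at 229.7 ± 7.46 FPKM in OVER43 against 250.6 ± 9.96 FPKM in EV, which was not called with all genes tested, nor when OVER43 library 0, OVER43 library 1 or EV library 1 was removed. Of the SET complex, which contains HMGB2, 3 of 4 tested members rose and 0 fell in the deposited scaling. Their calls under the other scalings are not reported here. Those that rose were APEX1 (202.6 ± 4.97 FPKM in OVER43 against 152.8 ± 3.87 FPKM in EV), ANP32A (205.4 ± 4.44 FPKM in OVER43 against 168.7 ± 3.38 FPKM in EV) and NME1 (233.5 ± 7.06 FPKM in OVER43 against 202.6 ± 8.47 FPKM in EV).

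Of the linker histones, with which HMGN and HMGB1 proteins compete for nucleosomes, 2 of 3 tested genes rose. HIST1H1C (H1.2) read 63.4, 62.5 and 63.7 FPKM in OVER43, against 32.5, 29.3 and 29.7 FPKM in EV (log2 fold change of 1.03, limma adjusted p = 4.37e-06). H1F0 averaged 106.3 ± 1.79 FPKM in OVER43 and 85.1 ± 4.35 FPKM in EV (0.32, limma adjusted p = 5.79e-04); after quantile scaling 1 of the 2 stayed called. H1FX read 93.7, 95.97 and 100.6 FPKM in OVER43 and 53.7, 64.2 and 100.6 FPKM in EV (limma adjusted p = 0.162). Most replication-dependent histone mRNAs lack a poly(A) tail and are poorly caught in such libraries.

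Other HMG-box and HMGN genes split, with 6 of 22 rising and 7 falling (median 0.08). HMGN5, the X-linked nucleosome-binding relative of the HMGN genes, read 11.5, 12.6 and 11.95 FPKM in OVER43, against 23.9, 24.0 and 25.03 FPKM in EV. This was opposite in direction to HMGN1, HMGN2 and HMGN3 (log2 fold change of -0.96, SE 0.055, limma adjusted p = 1.06e-05). LEF1, an HMG-box factor of the Wnt pathway, averaged 9.85 ± 0.621 FPKM in OVER43 against 17.9 ± 2.68 FPKM in EV (limma adjusted p = 6.04e-04). SOX12 (35.9 ± 1.56 FPKM in OVER43 against 21.9 ± 2.32 FPKM in EV) and TFAM, which packages mitochondrial DNA (57.5 ± 4.03 FPKM in OVER43 against 43.3 ± 2.06 FPKM in EV), rose.

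Of 11 receptors and partners of extracellular HMGB1 only SDC1 and MYD88 passed the filter. SDC1, a syndecan, was not called (51.5 ± 0.741 FPKM in OVER43 against 56.9 ± 4.29 FPKM in EV, limma adjusted p = 0.0737), though it was called lower under TMM, quantile scaling, equal sums and without EV library 0. The receptor genes AGER (RAGE) and TLR2 were listed at 0, and TLR4 was at 0 but for 1 EV library. MYD88, the adaptor of toll-like receptors, rose (19.9 ± 0.119 FPKM in OVER43 against 14.6 ± 1.15 FPKM in EV, limma adjusted p = 0.00110).

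Of 18 tested genes of the let-7 pathway and its known targets 7 rose and 2 fell (median 0.15), but 4 rose and 6 fell with equal sums, and 5 and 5 after quantile scaling. DICER1, which cuts microRNA precursors, rose (25.5 ± 0.637 FPKM in OVER43 against 16.9 ± 1.39 FPKM in EV) and DGCR8, the partner of DROSHA, fell (10.97 ± 0.456 FPKM in OVER43 against 13.6 ± 1.18 FPKM in EV). The target CDC25A, a phosphatase of the cell cycle, rose (28.7 ± 1.20 FPKM in OVER43 against 20.6 ± 1.93 FPKM in EV). HMGB2 and HMGA expression is known to go with proliferation. Of these genes HMGA1 fell under every scaling, and HMGB2 was called higher as deposited and with TMM only. As a gene HMGA2 was called higher in the deposited scaling only, and its coding sum rose by 0.48 there. Of 15 proliferation genes 12 rose and 0 fell (median 0.27), and 7 rose and 1 fell after quantile scaling. Those that rose ran from TYMS (132.5 ± 1.54 FPKM in OVER43 against 83.8 ± 5.21 FPKM in EV) and AURKB (98.3 ± 3.24 FPKM in OVER43 against 67.3 ± 3.497 FPKM in EV) to BIRC5 (51.8 ± 3.59 FPKM in OVER43 against 45.9 ± 0.877 FPKM in EV) and UBE2C (129.1 ± 6.24 FPKM in OVER43 against 117.5 ± 2.46 FPKM in EV). The part of the proliferation genes and the let-7 pathway in the changes of the HMG genes was not tested.

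**Figure D5:**
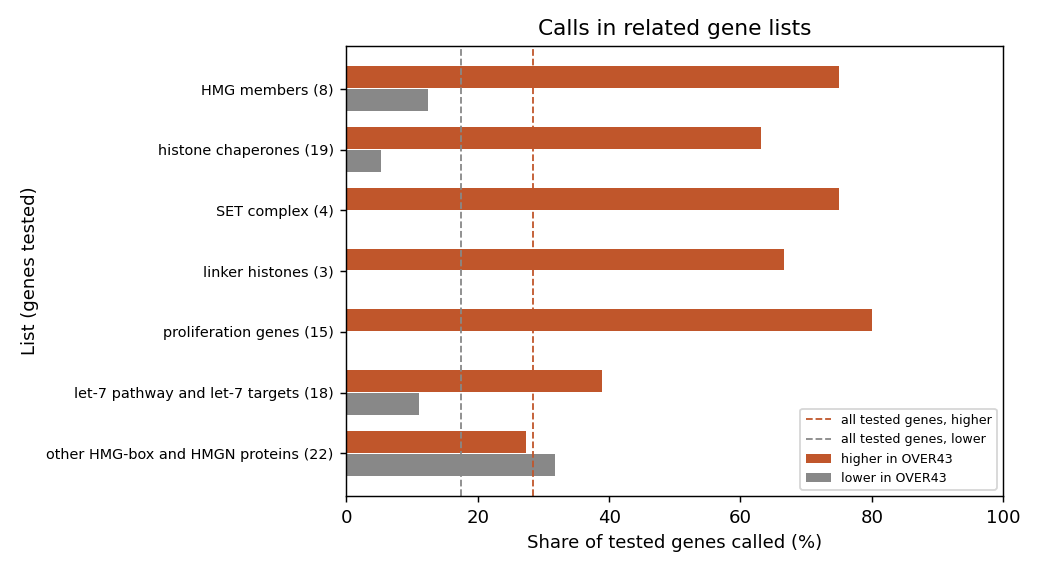
Share of tested genes called higher or lower in OVER43 in each list in the deposited scaling (limma, adjusted p under 0.05, number tested in brackets). Dashed lines give the shares of all tested genes, 28.4% higher and 17.5% lower. The HMG members, chaperones, SET complex, linker histones and proliferation genes lie right of the dashed line for higher genes, and the other HMG-box and HMGN genes are split.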

How the data were processed

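Poly(A) RNA of 6 RKO libraries was prepared with an Illumina TruSeq kit, per the labels' protocols. Cuffdiff was used, per the submitters' processing notes, and gave the deposited FPKM of 63563 genes and 251748 isoform entries in each library. Aligner and strandedness: not given in the sources used here. The notes name hg38, but the deposited loci are hg19 positions. The log2 fold change of the deposited tables puts EV on top of OVER43. Beside it the authors give Cuffdiff's test statistic, a score, and its p-values and q-values. Libraries are numbered 0 to 2 as in the columns, and the labels number replicates otherwise, so a column is a library of its group.

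Genes and entries with at least 1 FPKM in 3 of 6 libraries were tested separately with limma 3.58.1 (R 4.3.3; trend, robust) on log2(FPKM + 1), group as the only term, two-sided; the fold change understates that of low genes. Adjusted p-values cover all tested rows, and 19 genes without a Cuffdiff estimate were left out. The test was tried on simulated data. Depth on the FPKM scale came from low FPKM values under 10 fragments (99.8% to 100% within 0.1 of a whole number). In all, 0 per-library columns were left unused. Shares are of the summed FPKM of a gene's entries. Replicates correlated at 0.992 to 0.994 across genes and were not copies.

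The members and gene lists were chosen with earlier results of these data known. Named were the 9 members and GJA1; per related list up to 2 called genes highest and 2 lowest; pseudogenes averaging 1 FPKM; transcripts with at least 10% of a gene (others are named where a result turns on them); and the 2 nearest profiles of each member. Some genes of the related lists are not reported here. Transcript models, lengths and starts are those of GENCODE 29 (GRCh38), promoters and microRNAs those of RefSeq.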

Additional observations from a re-analysis of the deposited data

How the results depend on the processing

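HMGN2, HMGB1 and HMGA1 kept their calls under every alternative (TMM, quantile and equal-sum scaling, a pseudocount of 0.1, no filter or 5 FPKM, a block, each library left out, pseudogenes added). Quantile scaling gave 0.14 for HMGN1, 0.119 for HMGN3, -0.15 for HMGN4, 0.00 for HMGB2 and -0.043 for HMGA2. Equal sums gave 0.087 for HMGN3, -0.138 for HMGN4, 0.058 for HMGB2 and 0.009 for HMGA2, and TMM 0.093 for HMGA2; the cause was not tested. Thus 2 members were called higher and 2 lower after quantile scaling, and 3 and 2 with equal sums. Over all genes 2549 were higher and 2446 lower after quantile scaling, and 1867 higher and 3579 lower with equal sums. Thus 34.3% of calls were higher with equal sums, against 61.8% as deposited, 51.2% with TMM and 51.0% after quantile scaling. Without any 1 library the 8 genes kept direction and call status, except the uncalled HMGN4 (-0.03 to 0.04).

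Of 43 tested isoform entries of the members 11 were higher and 4 lower. Quantile scaling left 7 higher, no filter 6 and 2, and leaving out a library 7 to 10 higher and 2 to 4 lower. The HMGN4 transcript was -0.17 and its product sum -0.14 after quantile scaling, and -0.13 with equal sums; the product sum of HMGB2 was -0.003 after quantile scaling. With pseudogenes added the share of HMGN4 in the HMGN sum differed by -2.747 points. Same-numbered libraries of the 2 groups showed no strong common deviation (correlations 0.017, -0.091 and 0.029 across genes). Pairs with other numbers ran from -0.099 to 0.097, so whether the numbers pair the libraries cannot be told. A replicate block changed no call among the 8 genes (3306 genes higher, 2010 lower) and left 7 entries higher and 2 lower. Cuffdiff divides the reads of a gene among overlapping entries, so entry values are estimates.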
